A study of Drosophila melanogaster with 6 samples.

Results

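Centromere and spindle checkpoint genes were followed across 6 arrays of *Drosophila melanogaster* embryos, 3 from insv mutants and 3 from wild type. The group has 10 named members: cid, cal1 and Cenp-C of the centromere, Spc105R and Ndc80 of the outer kinetochore, and mad2, Bub1, Bub3, BubR1 and Mps1 of the checkpoint. They were chosen by function and with measured values in view, because cid had been seen more than 2-fold lower in the mutant. Of the 10 members, 9 had a uniquely named probe set, 1 each, among 11982 genes with 1 symbol. BubR1 was not analysed here. All 9 lay above the expression filter, a log2 level of 4, on every array of both genotypes. The mutant and wild-type values of the members chose the set, so they are described here without a test.

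The mutant carried the allele insv[23B] of Insensitive, which encodes a nuclear BEN-domain repressor, and the wild type was w[1118]. Whole embryos of both genotypes were grown at 25 °C and taken at 6 to 8 h, and total RNA was hybridised to Affymetrix arrays. A repeat number 1 to 3 is given for each genotype, and no label says whether the repeats came from separate collections. The p-values below therefore reflect only how far these 3 arrays per genotype scatter, and that scatter may be technical. No label gives the strain in which the mutant allele was kept, and differences in strain background, collection and array handling cannot be told apart from the genotype. Probes for markers of the embryo's layers gave clear signals on all arrays, with log2 levels of 11.6 to 11.8 for the neural gene SoxN, 11.6 to 11.9 for the endoderm and blood gene srp, 11 for the segment gene en and 6.9 to 7.4 for the visceral mesoderm gene bin.

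A chromosome is held by the spindle through its centromere, which is marked not by a DNA sequence alone but by nucleosomes that contain the histone H3 variant CENP-A. In flies this histone is the product of cid, the protein of cal1 loads it, and Cenp-C links it to the kinetochore, whose outer layer binds microtubules through Ndc80 and Spc105R. Kinetochores that lack microtubules recruit the kinase Mps1 and the Bub and Mad proteins, which hold back the anaphase-promoting complex until every chromosome is attached. In embryos of this age the rapid early divisions are over, while neural precursors keep dividing.

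The targeted gene matched its labels. insv read 10.9 on each wild-type array and 4, 3.6 and 4.2 on the mutant arrays (log2 level). Arrays of 1 genotype correlated at 0.996 to 0.998 across 8334 tested probe sets and arrays of different genotype at 0.905 to 0.906, and between 7821 and 8312 probe sets reached a level of 4. Over the 6932 tested genes, each represented by its brightest probe set, the median difference between mutant and wild type was -0.13 (log2). Limma is a linear model in which the variance of each probe set is drawn towards a value common to all. It called 41.7% of genes lower and 24.9% higher in the mutant at an adjusted p under 0.05. The probe sets for Bacillus control transcripts read lower in every mutant array, 23 of 23 of them, by a median of -1.43 (log2, range -1.77 to -0.90). Their part in the values below was not tested, and every direction given here is on the deposited scale.

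The centromeric histone gene stood apart from the other members. cid read 8.4, 8.5 and 8.1 on the wild-type arrays and 7.4, 7.2 and 7.1 on the mutant arrays (log2 level). The groups did not overlap, and the lowest wild-type value was 0.7 above the highest mutant value. Its means were 8.33 ± 0.21 and 7.23 ± 0.15 (SD, n = 3 each), a log2 difference of -1.10 ± 0.13 (SE from limma), or 2.14-fold lower. In a whole embryo fewer cells that express a gene and less RNA per cell cannot be told apart. The difference ran from -1.22 to -1.02 when each array was left out in turn. Of tested genes 2.26% had a lower difference, and 2.99% of genes were both called and at least 2-fold lower. Since cid was picked for its fall, a low share follows from that choice and is a description only. The threshold of 2-fold had cid just inside it and Mps1, at -0.37, as the nearest member outside it.

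The factors that place and read the centromeric histone differed little. cal1, the loading factor, read 10.2, 10.1 and 10.3 in wild type and 9.9, 9.9 and 10 in the mutant. Its groups were separated by 1 step of 0.1, the resolution of the deposited values, with a log2 difference of -0.27 ± 0.06 (SE). Cenp-C, the inner kinetochore protein that binds the centromeric nucleosome, read 9.6, 9.5 and 9.7 in wild type and 9.6, 9.5 and 9.5 in the mutant. These groups overlapped, and the difference of -0.07 ± 0.06 lay within the 0.1 by which rounding alone can move a difference of means.

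Of the outer kinetochore genes, one overlapped between genotypes and the other was barely separated. Spc105R, the fly KNL1 and the platform on which checkpoint proteins assemble, read 10.9, 10.9 and 11.1 in wild type and 11 on all 3 mutant arrays. The mutant values lay inside the wild-type range, with a difference of 0.03 ± 0.06 (log2, SE), again within rounding. Ndc80, which grips the microtubule, read 10.5, 10.4 and 10.4 in wild type and 10.3, 10.2 and 10.3 in the mutant. The groups were 1 rounding step apart, and the difference was -0.17 ± 0.05.

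The 4 checkpoint genes analysed, which leave out BubR1, were all slightly lower in the mutant, and by similar amounts. mad2, whose product helps to block the activator of the anaphase-promoting complex, read 10.3, 10.2 and 10.2 in wild type and 9.9 on each mutant array (log2 levels). The gap between the groups was 0.3, with a difference of -0.33 ± 0.04 (SE). Bub1, a kinase-family protein recruited by Spc105R, read 9.2, 9.3 and 9.2 in wild type and 9, 9 and 8.9 in the mutant. Bub3, the adaptor of the Bub proteins, read 12, 12 and 11.9 in wild type and 11.7, 11.7 and 11.6 in the mutant. In both genes the groups lay 0.2 apart, with differences of -0.27 ± 0.05 and -0.30 ± 0.05. Mps1, the kinase at the head of the checkpoint, read 7.2, 7.2 and 7.3 in wild type and 6.7, 7.1 and 6.8 in the mutant. Mps1 had the largest difference of the 4, -0.37 ± 0.11, and the widest mutant spread (SD 0.21). Its mutant replicate 2 came within 0.1 of the wild-type arrays, and without that array the difference was -0.48.

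**Figure D1:**
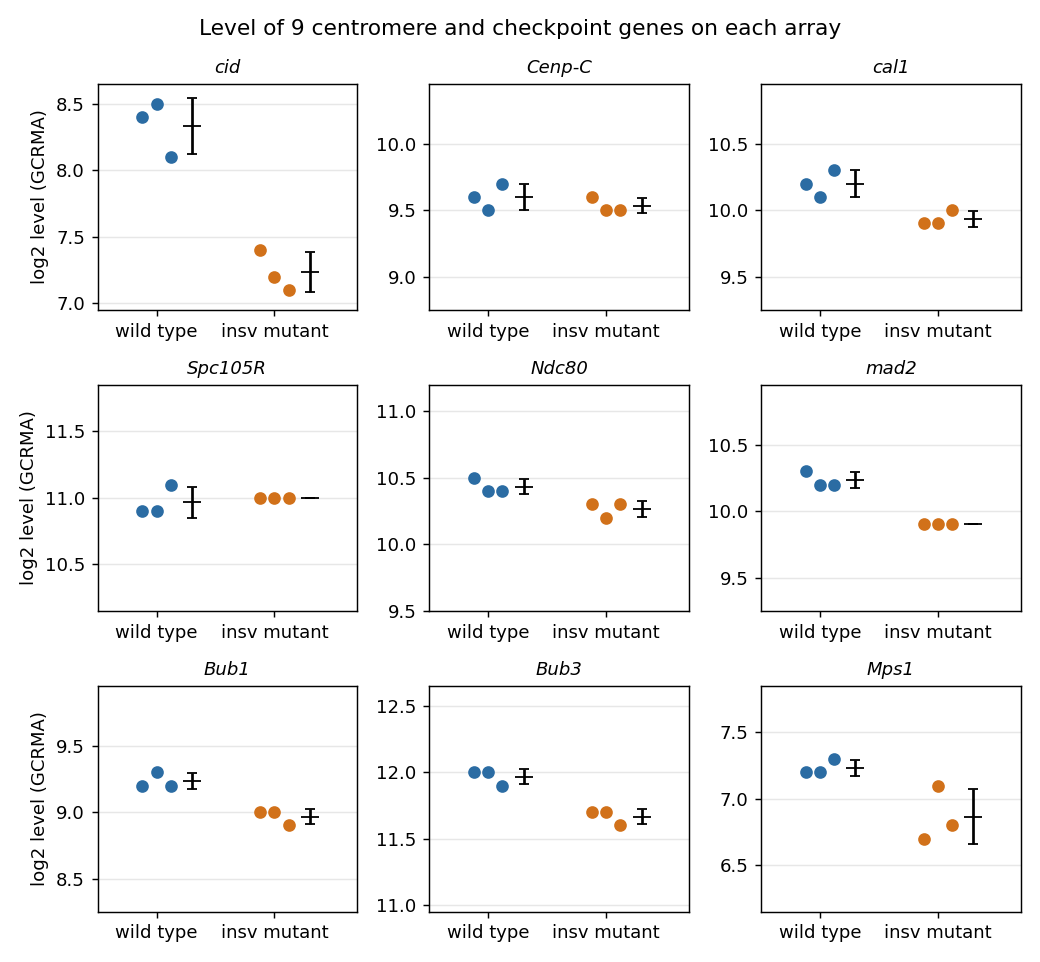
Log2 level (GCRMA) of 9 members on each array, with wild type left and insv mutant right in each panel. Points are arrays, bars the mean ± SD of 3, and all panels span the same range of log2 units, so that the distance between groups for cid (8.1 to 8.5 against 7.1 to 7.4) can be set beside the overlap of Cenp-C and Spc105R.

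The mutant values lay wholly below the wild-type values in 7 of 9 members, 0 lay wholly above, and Cenp-C and Spc105R overlapped. Among all tested genes 41.4% were separated in that direction. The set was chosen with this contrast known, and nothing is read from the count. The median difference of the 9 was -0.27 and that of the 8 without cid was the same, against -0.13 over all genes. By role, the 4 checkpoint genes ran from -0.37 to -0.27, and the 4 centromere and kinetochore genes other than cid from -0.27 to 0.03.

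The scale between arrays decided how many members were separated. With arrays centred on their median, 4 members remained wholly below wild type, namely cid, mad2, Bub1 and Bub3, and the difference of cid was -1 (log2). After quantile normalization these 4 and Mps1 were separated, cid stood at -1.11 and Mps1 at -0.49. Cenp-C changed sign under both, to 0.03. On a scale that makes the mean of the Bacillus controls equal on all arrays, 8 members lay wholly above wild type, with differences of 1.02 to 1.42, and cid, at 0.29, overlapped.

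**Figure D2:**
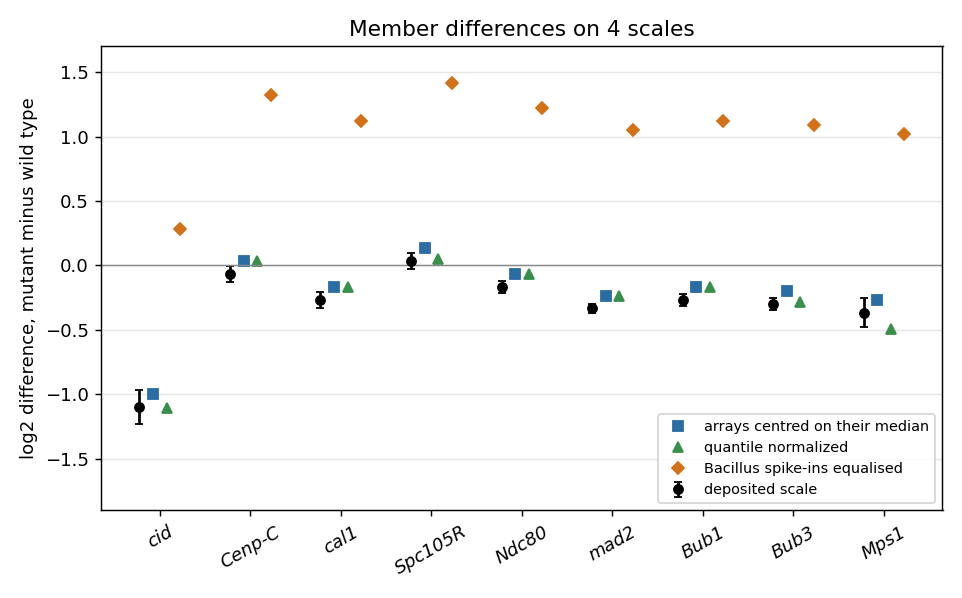
Log2 difference, mutant minus wild type, of each member on 4 scales; bars on the deposited scale are the limma SE. On the first 3 scales cid lies between -1.11 and -1, and with the Bacillus controls equalised all members move up together, cid to 0.29 and the others to between 1.02 and 1.42.

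The relation of cid to the other members does not depend on any constant added to an array. The level of cid minus the median of the other 8 members was taken on each array and set to a mean of 0 in wild type. It was 0.03, 0.23 and -0.27 on the wild-type arrays and -0.62, -0.82 and -0.97 on the mutant arrays, so the groups did not overlap. The difference of -0.80 ± 0.18 (log2, SE from the group SDs, n = 3 each) was the same on the median-centred and Bacillus scales and -0.91 after quantile normalization. It ran from -0.93 to -0.68 when an array was left out. Against single members it was smallest for Mps1, at -0.73 ± 0.23, and largest for Spc105R, at -1.13 ± 0.21. Since cid was picked for its low value, this is a description and shows unequal differences only, not which gene stayed constant.

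**Figure D3:**
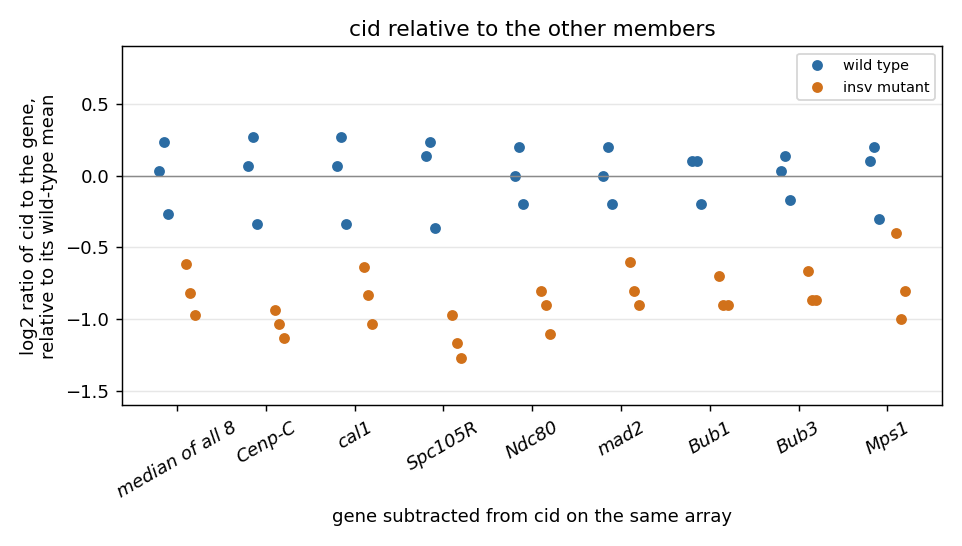
Log2 ratio of cid to each of the other 8 members, and to their median, on the same array, relative to the wild-type mean of that ratio. Each point is an array; the mutant arrays lie below the wild-type arrays for every gene subtracted, with group differences from -1.13 (Spc105R) to -0.73 (Mps1).

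Profiles like that of cid were found outside the members. Likeness was measured over the 6 arrays as the root mean squared distance between log2 profiles, each centred on its own mean. The nearest genes were CG5846, CG6005 and Ntmt, an N-terminal methyltransferase gene, all at 0.0687, then CG1896 and CG31278 at 0.0745. The fourth to ninth places were tied at that distance and were ordered by name. CG5846, for example, read 7.6, 7.6 and 7.2 in wild type and 6.6, 6.5 and 6.3 in the mutant. It shared with cid the lower value of wild-type replicate 3. The other members were further off, from mad2 at 0.410 (rank 1798 of the tested genes) to Spc105R at 0.603 (rank 4620). This distance depends largely on the difference between genotypes, for which cid was picked. Members with smaller differences therefore had to lie far from it, and nothing is read from these ranks.

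The genes beside cid in the annotation were also lower in the mutant. cbc, a polynucleotide kinase gene, read 8.4, 8.6 and 8 in wild type and 7.7, 7.5 and 7.6 in the mutant, a log2 difference of -0.73 ± 0.16 (SE, limma adjusted p = 0.0121). Without mutant replicate 2 it was -0.68 (limma adjusted p = 0.05) and missed the threshold. bbc, an enzyme gene of phospholipid synthesis, read 10.8, 10.7 and 10.9 in wild type and 10.6 on each mutant array. Its difference of -0.20 ± 0.06 passed (limma adjusted p = 0.0236) but did not when any 1 mutant array or the wild-type array 1 was left out (adjusted p = 0.0675 to 0.0689) or with median centring (adjusted p = 0.165).

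Counts over the neighbours of all members were small. Of 20 nearest genes, 1 on each side of each of the 10 members, 13 were tested, and 7 fell and 2 rose, where 41.7% of all genes were called lower and 24.9% higher. The falls next to other members were kri beside mad2 (-0.47), tzn beside Spc105R (-0.63), Nin beside Bub1 (-0.37), and alt (-0.53) and CG7523 (-0.50) on either side of Mps1. The alt call was lost without mutant replicate 1 or 3 (limma adjusted p = 0.0616 and 0.0552). The rises were CG11178 beside Ndc80, from 7.93 ± 0.06 to 9.20 ± 0 (SD, n = 3 each; 1.27 ± 0.04 SE, limma adjusted p = 6.99e-06), and Cap-D2 beside Bub3 (0.23, adjusted p = 0.0218). Cap-D2 lost its call without any 1 mutant array or without wild-type replicate 3 (adjusted p = 0.0521 to 0.0681). Without mutant replicate 2 or 3 only 1 neighbour, CG11178, was called higher. Not called were cher beside cal1 (0.20), CG3634 beside Spc105R (-0.07), BthD beside Ndc80 (-0.07) and mle beside BubR1 (0.13, adjusted p = 0.0514). Without wild-type replicate 3 cher and mle were called higher (adjusted p = 0.0138 and 0.0274), mle also without mutant replicate 1 (adjusted p = 0.032), and CG3634 was called lower without wild-type replicate 1 (adjusted p = 0.0205). The genes 5-HT2B beside Cenp-C and ppk19 beside Bub3 lay below the filter, and the other 5 were not analysed here.

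The wider mitotic machinery gave mostly small falls. Of 92 listed genes in 7 lists, which exclude the members, 72 were tested. Limma called 44 of them lower (61.1%, against 41.7% of all genes) and 3 higher (4.17%, against 24.9%), with a median difference of -0.23 against -0.13. 1 of the 72 fell at least 2-fold, against 2.99% of all genes, and 0 had a lower difference than cid. With arrays centred on their median, 29 fell and 6 rose, and on the Bacillus scale 0 fell and 69 rose. Over all 8334 tested probe sets, 3404 were called lower and 2055 higher on the deposited scale, and 2434 and 2581 with median centring. On the Bacillus scale the counts over all probe sets were 51 and 7714. Of the calls 1, mr of the anaphase-promoting complex, rested on a difference of a single rounding step.

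Among the 7 mitotic lists the other kinetochore genes had the lowest median, -0.38, and 9 of 12 fell, 0 rose and 3 did not pass. Over all genes 41.7% were called lower and 24.9% higher. Mis12, a subunit of the complex between Cenp-C and the microtubule binders, read 6.8, 7.1 and 6.5 in wild type and 5.7, 5.9 and 5.7 in the mutant. Of the 72 mitotic companions it was the 1 to fall at least 2-fold, with a difference of -1.03 ± 0.16 (log2, SE; limma adjusted p = 0.00349), and like cid its wild-type replicate 3 was the lowest of its group. Its partner Kmn1 fell by 0.47 ± 0.05 (adjusted p = 0.000637). Nuf2, which pairs with Ndc80, stood at -0.50 ± 0.07, and Spindly, which brings dynein to kinetochores, at -0.63 ± 0.07 (adjusted p = 0.00287 and 0.000882). Ndc80 itself stood at -0.17. With median centring 5 of the 12 fell, against 2434 of 8334 probe sets.

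Genes that handle centromeric and other histones fell in 6 of 11 cases, with a median of -0.20, against 41.7% of all genes called lower. With median centring 3 of them fell and 2 rose, against 2434 lower and 2581 higher of 8334 probe sets. Caf1-55 (-0.30) and Caf1-105 (-0.33) of the chromatin assembly factor, Nph of the nucleoplasmin family (-0.30) and Hira, a chaperone of another H3 variant (-0.27), passed the threshold (limma adjusted p = 0.0032 to 0.0135). Hira lost its call without mutant replicate 1 or 3 (adjusted p = 0.0523 and 0.0521). Hira also lost it with median centring (adjusted p = 0.0651), and the lowest difference in the list was -0.37.

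Of 6 genes of the chromosomal passenger complex, which corrects wrong attachments, and of mitotic kinases, 4 fell and 2 did not pass (median -0.23), and 2 fell with median centring. Over all genes 41.7% were called lower and 24.9% higher. With median centring 2434 of 8334 probe sets were lower and 2581 higher. The complex's targeting subunits borr and Det and its scaffold Incenp had differences of -0.40, -0.23 and -0.20, and Haspin, the kinase that marks its binding site on chromatin, one of -0.40. Det and Incenp did not pass with median centring (limma adjusted p = 0.0547 and 0.165), and Incenp also did not pass without any 1 mutant array or without wild-type replicate 1 (adjusted p = 0.0675 to 0.0689). The anaphase-promoting complex, the target of the checkpoint, had 8 of 12 genes lower (median -0.25), and with median centring 5 were lower and 1 higher. The 4 with the smallest adjusted p were Cdc23 (-0.63 ± 0.05 SE), ida (-0.60 ± 0.07), CG17343 (-0.47 ± 0.08) and Cdc16 (-0.33 ± 0.06), and APC4 differed as much as Cdc23 with a wider error (-0.63 ± 0.14).

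Genes that hold sister chromatids together or release them fell in 8 of 12 cases (median -0.25). Over all genes 41.7% were called lower and 24.9% higher, which also serves for the condensin and spindle counts that follow. eco and san, acetyltransferases of sister cohesion, had differences of -0.63 and -0.50, the cohesin subunit gene SA1 of -0.40 and pim, the securin destroyed when the checkpoint is satisfied, of -0.47 (log2; limma adjusted p = 0.000206 to 0.00111). Of 6 condensin genes 2 fell, SMC2 (-0.33) and glu (-0.23), and 1 rose, Cap-D2 (0.23), the neighbour of Bub3 whose call is fragile as given above (list median -0.12). Of 13 spindle genes 7 fell and 2 rose (median -0.17). mars, a spindle-associated protein gene, fell by 0.93 ± 0.06 (SE; adjusted p = 0.000145), and nod, a kinesin-like gene, and Sas-6 of the centriole by 0.37 and 0.30. ana2 of the centriole rose by 0.83 (adjusted p = 0.00455) from a low level of 4.63, and was not called after quantile normalization (0.17, adjusted p = 0.241). The other spindle gene to rise was tacc, from 10.83 to 11.07 (0.23, limma adjusted p = 0.00814).

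**Figure D4:**
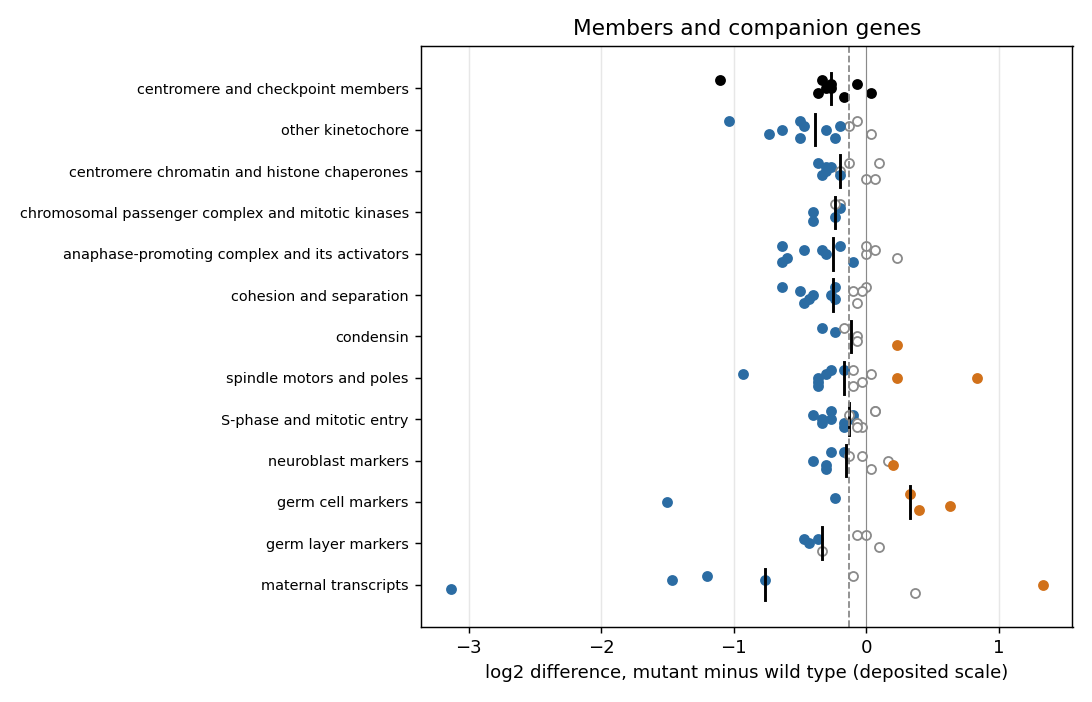
Log2 differences, mutant minus wild type, on the deposited scale. Each point is a gene: black for members, blue for called lower, orange for called higher, open for not called; black bars are list medians and the dashed line is the median of all tested genes, -0.13. The lowest points of the members and mitotic lists are cid (-1.10) and Mis12 (-1.03); the late differentiation list, at 1.83 to 4.87, is not drawn.

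Marker lists were read on the same arrays, and their part in the member values was not tested. Late differentiation genes rose in 9 of 9 cases (median 3.47, range 1.83 to 4.87), against 24.9% of all genes called higher. Among them were Mlc1 (3.47) of muscle and the cuticle genes TwdlN (4.87) and TwdlM (3.90). The cuticle gene Cpr56F read 2.3, 2.4 and 2.3 in wild type, near the floor of 2.2, and 6 on each mutant array. It passed the filter through the mutant arrays alone, so its direction was fixed by the filter and no fold is given for it. The count and median of the list include it, and its part in them is not a finding. Genes of S phase and mitotic entry fell in 9 of 15 cases and 0 rose, with a median of -0.13, equal to that of all genes. Over all genes 41.7% were called lower. With median centring 4 of the S phase list fell, against 2434 of 8334 probe sets. Orc1 (-0.40) and dup (-0.27) of replication origins, the E2F partner gene Dp (-0.33) and Rbf, a retinoblastoma family gene (-0.33), were among the falls, and none reached 2-fold.

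Among markers of dividing neural precursors 5 of 10 fell and 1 rose (median -0.15), close to the median of -0.13 and not far from the 41.7% called lower over all genes. With median centring 2 fell and 2 rose, against 2434 lower and 2581 higher of 8334 probe sets. The 4 falls with the smallest adjusted p were pdm2 (-0.40), insc (-0.30), ase (-0.30) and wor (-0.17). The other fall was pros (-0.27), and the rise was sna (0.20, limma adjusted p = 0.0135). With a replicate block sna was not called. The markers not called were mira (0.17), esg (0.03), svp (-0.03) and dpn (-0.13). Calls for ase and wor were lost with median centring (limma adjusted p = 0.0528 and 0.163), and that of wor also after quantile normalization (adjusted p = 0.051). Germ cell genes moved both ways, with piwi lower (-1.50) and osk (0.63), nanos (0.33) and gcl (0.40) higher among 5 tested (2 lower, 3 higher, median 0.33). The other fall, aub, was lost without any 1 mutant array or without wild-type replicate 3, which left 1 lower. Its call was also lost with median centring, with no filter and with a replicate block. Of 7 germ layer markers 3 fell, bin (-0.43), twi (-0.37) and hh (-0.47), and 0 rose (median -0.33), a share near the 41.7% of all genes. Of 7 maternal transcripts 4 fell and 1 rose (median -0.77), with plu (-3.13), tor (-1.47) and bcd (-1.20) lower and mtrm (1.33) higher. Over all genes 41.7% were called lower and 24.9% higher, shares that also serve for the germ cell counts. With so few genes in these lists, nothing is read from their counts.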

How the data were processed

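Per the submitters' processing notes, the deposited log2 levels came from GCRMA, a method whose version and options are not given in the sources used here. In GCRMA background is corrected, arrays are made comparable and 1 value is given per probe set. The values ran from 2.2, a floor, to 15.1 and were rounded to 1 decimal, so in 24.1% of tested probe sets the 3 arrays of a genotype, 1 or both, read the same. That they are log2 follows from their range.

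Of 18952 probe sets, 183 controls were set aside. Names came from the platform annotation, updated through the gene identifier with the RefSeq annotation of Release 6, also used for the order of genes. 13647 probe sets had 1 symbol, 402 several and 4720 none. Every column was used. Probe sets with a level of at least 4 on at least 3 of 6 arrays were tested with limma 3.58.1 in R 4.3.3 (lmFit, eBayes, no block), with Benjamini-Hochberg adjustment over 8334 probe sets. The code was tested on simulated data. A gene stands for its brightest probe set.

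Members and lists were chosen with earlier results of these data known. Named companions are the 4 genes per list with the smallest adjusted p among those called; the nearest genes on each side of a member and the 5 with profiles most like cid were named too. Promoter motifs, also planned, were not analysed here. The number of arrays limits precision. Alternatives were other scales, filters, priors, array weights, a replicate block, a minimum fold, averaging the probe sets of a gene and each array left out.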

Additional observations from a re-analysis of the deposited data

How the results depend on the processing

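The scale between arrays had the largest effect of the settings tried. Over all probe sets, 3404 were called lower and 2055 higher. These counts were 2434 and 2581 with median centring, 51 and 7714 on the Bacillus scale, and 291 and 1062 at a minimum of 2-fold. Leaving out 1 array gave 2840 to 3527 lower and 1870 to 2186 higher. The count of members wholly below wild type, 7, became 4 with median centring and 0 on the Bacillus scale. Without any 1 array it was 7, but groups that do not overlap stay apart when an array is removed, so that count could not fall. Of the 72 mitotic companions, 29 were lower and 6 higher with median centring, 0 and 69 on the Bacillus scale, and 1 and 0 at a minimum of 2-fold; array weights gave 6 higher. Leaving out 1 array gave 36 to 46 lower and 2 to 4 higher. The 13 tested neighbours had 0 lower and 12 higher on the Bacillus scale; 4 were higher with median centring or array weights and 1 with no filter. Leaving out 1 array gave 5 to 7 lower and 1 to 3 higher. Alternatives for neighbours and for genes with profiles like cid were added after seeing the data. The difference of cid relative to the other members kept its direction after quantile normalization (-0.91). A constant per array cancels in it, so the median-centred and Bacillus scales could not change it. Its groups did not overlap, so leaving out 1 array could not turn its direction. Since cid was picked for its low value, this too is a description. Same-numbered arrays deviated from their group means with correlations of 0.17, -0.01 and 0.27, and arrays of different number with -0.29 to 0.20. The highest value was that of replicate 3. Whether arrays of the same number shared a collection or batch was not tested. The replicate block gave 3224 lower and 2010 higher probe sets, and 39 lower and 4 higher companions. Of the genes named by rule, Hira, Incenp and bbc lost their calls there (limma adjusted p = 0.0646, 0.0506 and 0.0506), and mle was called higher (adjusted p = 0.0454). The germ cell gene aub lost its call as well. Each member has 1 probe set, so averaging probe sets changes no member value.

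The Bacillus scale turned the sign of the 7 separated members: cid 0.29, cal1 1.12, Ndc80 1.22, mad2 1.05, Bub1 1.12, Bub3 1.09 and Mps1 1.02 (log2 differences). It also turned 49 named genes, as a shift of every gene must for any fall smaller than the shift. Values there were 0.35 for Mis12 and CG31278, 0.32 for CG6005 and Ntmt, 0.39 for CG5846, 0.42 for CG1896, 0.45 for mars, 0.65 for cbc and 0.19 for bcd. They were 0.75 for Cdc23, Spindly, eco and tzn, 0.79 for ida, 0.85 for alt, and 0.89 for CG7523, Nuf2 and san. CG17343, Kmn1, hh, kri and pim stood at 0.92, bin at 0.95, and Haspin, Orc1, SA1, borr and pdm2 at 0.99. Nin, nod and twi stood at 1.02, Caf1-105, Cdc16, Dp, Rbf and SMC2 at 1.05, and Caf1-55, Nph, Sas-6, ase and insc at 1.09. Hira and dup stood at 1.12, Det and glu at 1.15, Incenp and bbc at 1.19 and wor at 1.22. The cause of the Bacillus difference was not tested. With 3 arrays per genotype and steps of 0.1, differences near 0.1 cannot be resolved.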
